A study of Mus musculus with 6 samples.

Results

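Lymphotoxin and tumour necrosis factor (TNF) signal through receptors on stromal and endothelial cells to the transcription factor NF-kappaB. Here 10 genes of this pathway are described, chosen by name from the 23337 genes of the deposited expression table, in which all 10 were found. They are the receptor genes Ltbr, Tnfrsf1a and Tnfrsf11a, the subunit genes Nfkb1, Nfkb2 and Relb, the inhibitor genes Nfkbia and Tnfaip3, and the signalling genes Traf1 and Birc3. RNA-seq libraries came from 3 knockout (Stab1-/-) and 3 wild-type samples of mouse spleen, all of strain C57BL/6 and labelled blood endothelial cells, sorted for CD31 and against CD45 after collagenase digestion. Stab1 encodes stabilin-1 (Clever-1), a scavenger receptor, and the study's title concerns contacts of the splenic vasculature with lymphocytes. The labels give neither the age of the mice nor the design of the mutant allele. Nor do they tie libraries to animals, and p-values here therefore measure the spread between libraries, which may be technical. Knockout libraries are called KO 2, KO 3 and KO 4 and wild-type libraries WT 1, WT 3 and WT 4, after the numbers in the table.

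Lymphotoxin signals through Ltbr mainly to the non-canonical arm, in which the Nfkb2 product is processed and acts with Relb. TNF signals through Tnfrsf1a mainly to the canonical arm, in which an inhibitor such as the Nfkbia product is degraded and frees dimers that hold the Nfkb1 and Rela products. In spleen, lymphotoxin signalling to stroma is known to be needed for the layout of the white pulp and for homeostatic chemokines. Nfkbia, Tnfaip3, Traf1, Birc3, Nfkb2 and Relb are themselves widely known as targets of NF-kappaB, so their RNA is often read alongside the pathway's activity.

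Levels are RPKM (reads scaled by gene length and library size), a scale per length on which genes can be compared. Log2 fold changes are knockout minus wild type on the scale of log2(RPKM + 0.5), with 95% intervals for one gene at a time, a value after ± beside a mean level is the SD over the 3 libraries of the group, and a gene counts as called at an adjusted p under 0.05 in limma. Reads recovered from the RPKM values summed over genes to 40274424 to 51498038 per library, and may be too low, as described below. The 10 genes took 511 to 48632 of these reads each per library, so the spread between libraries and not counting sets their error. Stab1 was at 2.32, 2.62 and 2.49 RPKM across KO 2, KO 3 and KO 4, against 21.6, 43.6 and 31.4 RPKM across WT 1, WT 3 and WT 4 (log2 fold change -3.40 ± 0.22 SE, adjusted p = 7.15e-05 in limma). An exact two-sided permutation test of Stab1 over the 20 assignments gave p = 0.1, the smallest that 3 against 3 libraries allow. Endothelial markers matched the labelled cell type, with all 8 listed genes tested and a summed level of 2134.0 to 2462.0 RPKM in knockout and 1817.0 to 2304.0 RPKM in wild type (none called in limma or voom, 1 at an unadjusted p under 0.05). The 9 leukocyte markers, Ptprc among them, summed to 1.33 to 2.02 RPKM in knockout libraries and 1.21 to 1.68 RPKM in wild-type libraries.

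Promoter stretches of 3 of the genes are shown because they carry the sequence to which NF-kappaB dimers bind. The genes were chosen by name and not by this sequence. These 3 are widely known as targets of NF-kappaB, so its presence is not independent of the choice. RefSeq windows (GRCm38.p6) from 250 bases before to 50 after a transcript start were found for 8 of the 10 genes, 11 windows in all. Each window was searched on both strands for the 9-letter core GGNNNTTCC and for the full kappaB consensus of 10 letters, and matches of the 2 motifs mostly overlap. In the stretches below, written 5′ to 3′ on the strand of the gene and ending at the last base before the start, capitals mark every match of either motif.
Nfkbia (chr12:55492648-55492888, minus strand): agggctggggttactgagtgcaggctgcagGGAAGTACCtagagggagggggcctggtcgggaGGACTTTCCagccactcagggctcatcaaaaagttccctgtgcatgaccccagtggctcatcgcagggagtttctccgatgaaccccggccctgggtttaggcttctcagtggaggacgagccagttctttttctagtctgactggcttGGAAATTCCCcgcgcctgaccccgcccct
Tnfaip3 (chr10:19015411-19015565, minus strand): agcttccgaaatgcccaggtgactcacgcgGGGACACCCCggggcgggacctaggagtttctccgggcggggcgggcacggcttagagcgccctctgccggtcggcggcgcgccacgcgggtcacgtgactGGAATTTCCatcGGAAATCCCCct
Nfkb2, first of 3 starts (chr19:46304668-46304736, plus strand): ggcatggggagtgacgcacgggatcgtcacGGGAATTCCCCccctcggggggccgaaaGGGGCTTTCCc

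The full consensus was found for Nfkbia, Tnfaip3 and Nfkb2, in 5 of the 11 windows (45.5%), against 4.5% of all 32851 windows of the table and 5.4% of the windows of tested genes. The core was found in 7 of the 11 windows (63.6%), belonging to the same genes and Tnfrsf1a, against 18.5% of all windows and 22.2% of those of tested genes. In Nfkbia the match of the full consensus began 29 bases before the start, in Tnfaip3 12 and 125 bases before it, and in the first Nfkb2 window 11, 38 and 39 bases before it. The windows of the other 2 Nfkb2 starts overlap and share a site, so the windows are not independent. Counted by gene, 3 of 8 held the full consensus, beside 515 of 7930 tested genes with a window. The core was held by 4 of 8, beside 2053 of 7930. Windows of Ltbr, Tnfrsf11a, Traf1 and Birc3 held neither motif, which says only that those letters are not in those windows. These counts describe letters and were not tested.

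**Figure D1:**
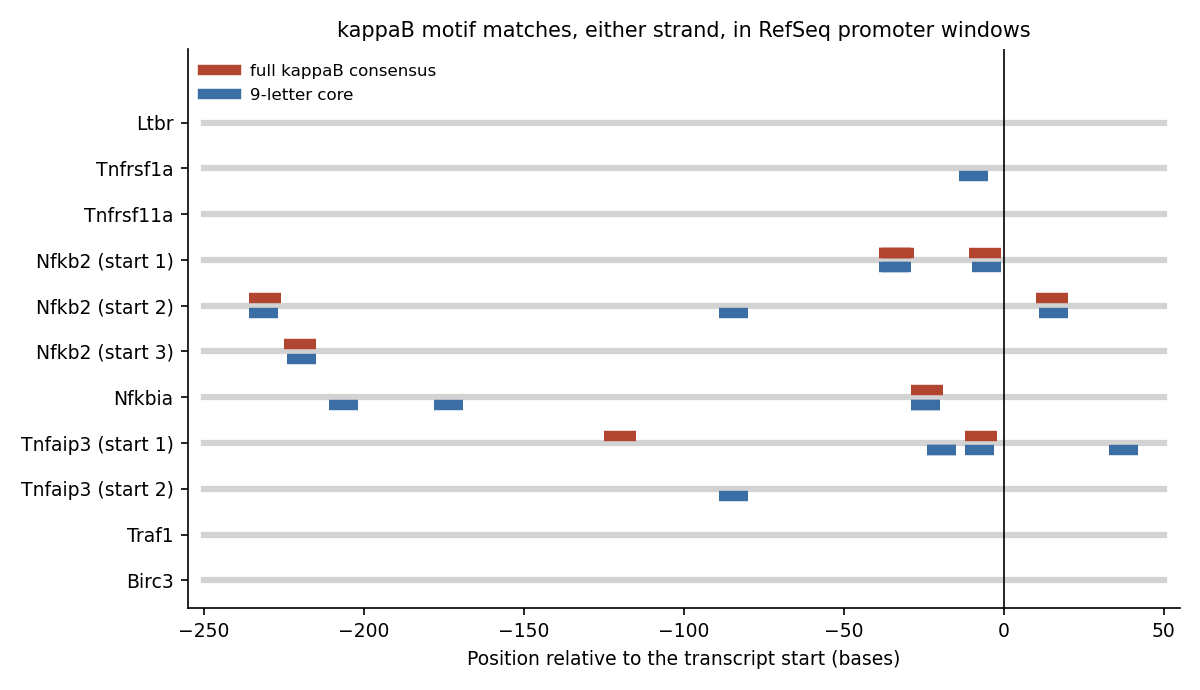
Matches of the full kappaB consensus (red) and of its 9-letter core (blue) on either strand, by position in bases relative to the transcript start (vertical line), in the 11 RefSeq promoter windows of 8 genes. Nfkbia, Tnfaip3 and Nfkb2 carry the full consensus, while Ltbr, Tnfrsf11a, Traf1 and Birc3 show no match.

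Levels of the 10 genes spanned a wide range, in nearly the same order in both genotypes. Nfkbia was the most abundant, at 553 ± 48.4 RPKM in knockout and 516 ± 69.3 RPKM in wild type (SD, n = 3 each), above 99.2% of all genes tested. Tnfrsf1a, Relb, Ltbr and Nfkb2 followed in that order in both groups, between 63.8 and 112 RPKM in knockout and between 57.6 and 107 RPKM in wild type. Birc3, Nfkb1, Traf1 and Tnfaip3 lay lower, and Tnfrsf11a was the lowest of the 10, above 17.8% of tested genes. Ltbr and Nfkb2 overlapped between libraries in both groups, and so did Birc3 and Traf1, and Nfkb1 and Tnfaip3, among knockout libraries and Nfkb1 and Traf1 among wild-type ones. All other neighbours in the order were apart in every library of their group. The difference in order between the groups is the place of Traf1, which stood above Nfkb1 in all 3 knockout libraries and overlapped it in wild type.

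Knockout libraries were then compared with wild-type libraries. None of the 10 genes was called, against 1.94% of the 11035 genes tested, and their adjusted p-values in limma ranged from 0.224 to 0.954. Traf1 and Tnfaip3 had an unadjusted p under 0.05, a share of 2 in 10 beside 15.7% of all genes tested, and voom on recovered reads called none of the 10 either. Library quality weights in limma, which let libraries count unequally, called Tnfaip3 (adjusted p = 0.00376), Traf1 (0.00471), Ltbr (0.0248) and Nfkbia (0.0329), along with 33.1% of all genes tested. Knockout and wild-type libraries did not overlap for 1 of the 10 genes, Traf1, while 20.3% of all tested genes did not overlap and 10.7% had all knockout libraries above all wild-type ones. Of the 10 genes, 7 had a positive and 3 a negative log2 fold change, with a median of 0.11, beside a median of 0.026 and 54.3% positive over all tested genes. For 8 of the 10, all but Tnfaip3 and Tnfrsf11a, the interval lay within a 1.5-fold change in either direction.

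**Figure D2:**
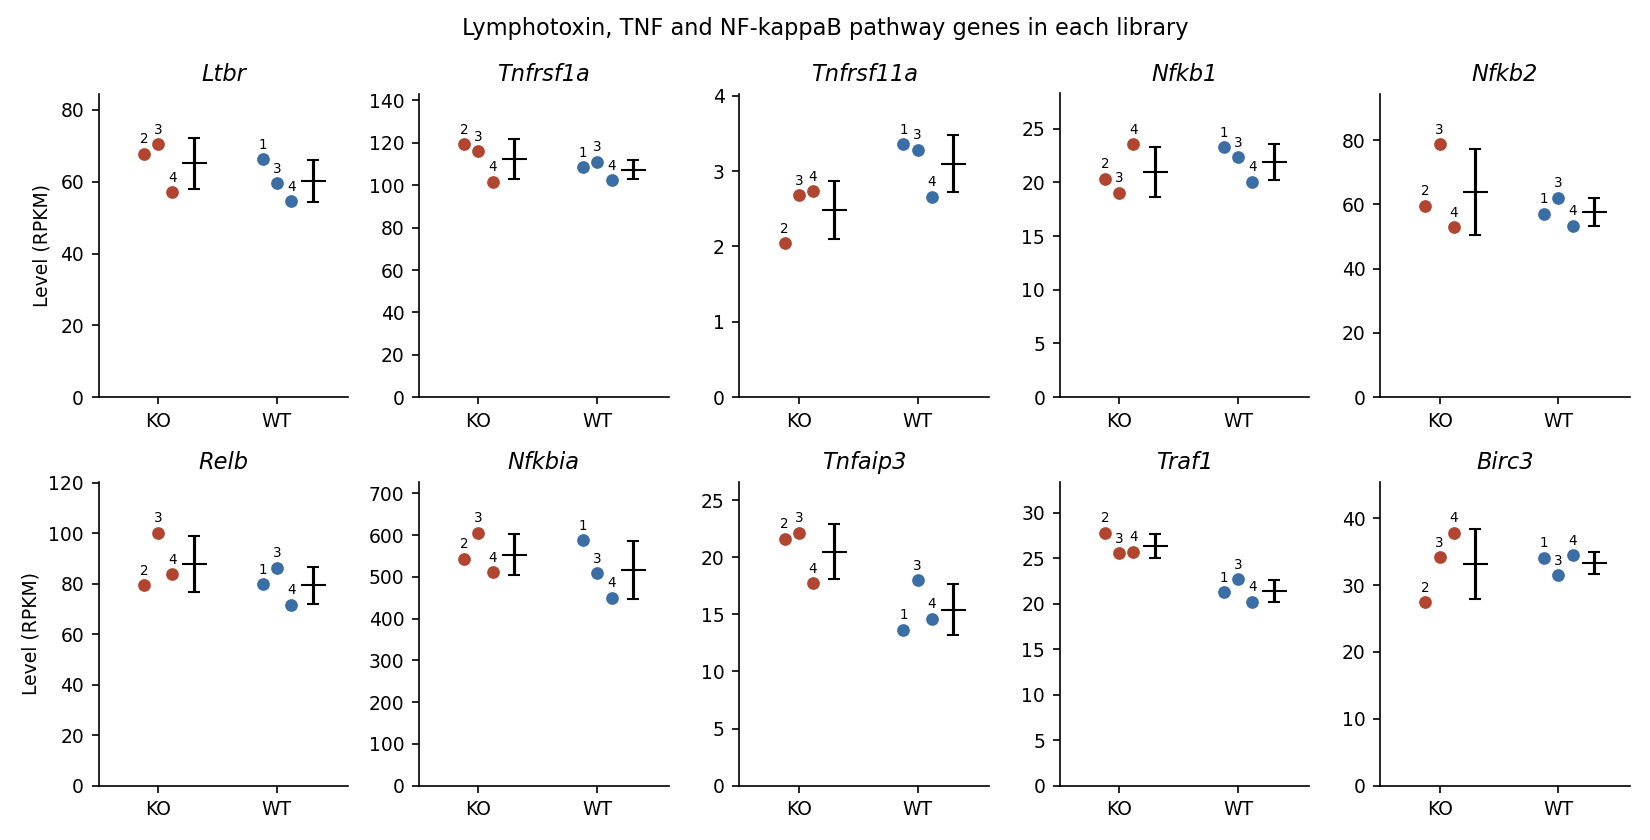
Levels in RPKM of the 10 genes in each knockout (red) and wild-type (blue) library, numbered as in the deposited table, with the mean and SD of each group (n = 3) beside the points and every axis starting at 0. The groups overlap for all genes but Traf1, whose knockout libraries lie at 25.5 to 27.8 RPKM and wild-type libraries at 20.2 to 22.7 RPKM.

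Among the receptors, Ltbr, the receptor for membrane-bound lymphotoxin (chromosome 6, 125306571 to 125313885, GRCm38), was at 67.8, 70.5 and 57.1 RPKM across KO 2, KO 3 and KO 4, against 66.3, 59.6 and 54.6 RPKM across WT 1, WT 3 and WT 4. The groups overlapped, with KO 4 and WT 4 lowest in each. The log2 fold change was 0.11 ± 0.12 SE (interval -0.15 to 0.37, adjusted p = 0.654 in limma). Tnfrsf1a, the main signalling receptor for soluble TNF, lies on the same chromosome (125349723 to 125362483), 35837 bases away, with Scnn1a between them. It was at 119, 116 and 102 RPKM in the knockout libraries in that order, against 108, 111 and 102 RPKM in the wild-type libraries. KO 4 again stood below the other knockout libraries and beside WT 4 (log2 fold change 0.06 ± 0.10 SE, interval -0.15 to 0.28, adjusted p = 0.766 in limma). Within each library Ltbr stood at 0.579 ± 0.025 of the Tnfrsf1a level in knockout and 0.560 ± 0.044 in wild type (SD, n = 3 each, exact two-sided permutation p = 0.6).

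Tnfrsf11a, which encodes RANK, the receptor for the osteoclast factor RANKL (chromosome 1, 105780673 to 105849444), had the largest negative log2 fold change of the 10. Its level was 2.05, 2.68 and 2.74 RPKM across KO 2, KO 3 and KO 4, against 3.36, 3.28 and 2.66 RPKM across WT 1, WT 3 and WT 4. The groups overlapped through WT 4, which lay below KO 3 and KO 4. The log2 fold change was -0.27 ± 0.18 SE (interval -0.68 to 0.14, adjusted p = 0.488 in limma), so a fall of over 1.5-fold lies inside its interval. It did not enter the fit at a filter of 5 RPKM.

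Of the subunits, Nfkb1, whose product is the canonical DNA-binding partner of the Rela product (chromosome 3, 135584655 to 135691969), was at 20.3, 19.1 and 23.6 RPKM across KO 2, KO 3 and KO 4, against 23.3, 22.4 and 20.1 RPKM across WT 1, WT 3 and WT 4. The highest value was in KO 4, and knockout and wild-type libraries lay among each other (log2 fold change -0.06 ± 0.12 SE, adjusted p = 0.822 in limma). Nfkb2, the non-canonical counterpart (chromosome 19, 46300994 to 46312400), was at 59.6, 78.8 and 53.0 RPKM in the knockout libraries, against 57.1, 62.1 and 53.5 RPKM in the wild-type libraries. Its mean difference rested on KO 3, with KO 4 below all wild-type libraries. The log2 fold change was 0.13 ± 0.14 SE (interval -0.19 to 0.45, adjusted p = 0.674 in limma) and was -0.03 without KO 3.

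Relb, the partner of the processed Nfkb2 product (chromosome 7, 19606217 to 19629438), was at 79.4, 100.2 and 83.7 RPKM across KO 2, KO 3 and KO 4, against 79.7, 86.4 and 71.7 RPKM across WT 1, WT 3 and WT 4. KO 3 was the highest and WT 4 the lowest of the 6 (log2 fold change 0.14 ± 0.12 SE, interval -0.12 to 0.40, adjusted p = 0.568 in limma, and 0.04 on the log2 scale without KO 3). The ratio of Nfkb2 to Nfkb1, one precursor gene to the other, was 2.93, 4.14 and 2.25 in the knockout libraries, against 2.45, 2.78 and 2.66 in the wild-type libraries. The knockout libraries spread on both sides of the wild-type ones, with an SD of 0.956 in knockout and 0.166 in wild type (n = 3 each, exact two-sided permutation p = 0.6). Relb stood at 1.01 ± 0.068 times the level of Rela in knockout and at 0.968 ± 0.053 times in wild type (SD, n = 3 each, exact two-sided permutation p = 0.4). The annotated ends of Nfkb2 and Psd share 316 bases, whose reads cannot be split in libraries without strand information, while Psd itself averaged 2.10 RPKM in knockout and 1.95 RPKM in wild type. Gene spans, introns included, also overlap noncoding genes, Nfkb2 with 4833438C02Rik (2045 bases), Nfkb1 with Gm46827 (5234 bases) and Traf1 with Gm52552 (10518 bases). The longest transcripts of Nfkb1 and Traf1 have 4149 and 3436 bases, so their overlaps include introns. How much of each overlap lies in exons was not examined.

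Nfkbia, which encodes the inhibitor that holds canonical dimers in the cytoplasm and is rapidly re-made after stimulation (chromosome 12, 55489409 to 55492647), was at 543, 606 and 511 RPKM across KO 2, KO 3 and KO 4, against 588, 509 and 450 RPKM across WT 1, WT 3 and WT 4. The groups overlapped, with WT 1 above KO 2 and KO 4 (log2 fold change 0.11 ± 0.12 SE, interval -0.16 to 0.37, adjusted p = 0.673 in limma). Tnfaip3, a ubiquitin-editing enzyme that ends NF-kappaB signalling (chromosome 10, 19000910 to 19015410), was at 21.6, 22.2 and 17.72 RPKM in the knockout libraries, against 13.7, 17.98 and 14.6 RPKM in the wild-type libraries. Only KO 4 lay below a wild-type library, WT 3. It had the largest difference and the smallest p of the 10, with a log2 fold change of 0.40 ± 0.14 SE (interval 0.08 to 0.73, unadjusted p = 0.0198, adjusted p = 0.224 in limma), and so was not called. The exact two-sided permutation p was 0.2.

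Traf1, an adaptor that binds TNF-family receptors together with Traf2 (chromosome 2, 34941750 to 34961812), was at 27.8, 25.5 and 25.7 RPKM across KO 2, KO 3 and KO 4, against 21.2, 22.7 and 20.2 RPKM across WT 1, WT 3 and WT 4. Every knockout library was above every wild-type library, and the residual SD of 0.075 on the log2 scale was the smallest of the 10. The log2 fold change was 0.29 ± 0.11 SE (interval 0.06 to 0.53, unadjusted p = 0.0205, adjusted p = 0.228 in limma), and it too was not called. Birc3, a ubiquitin ligase of the inhibitor-of-apoptosis family that works with Traf2 (chromosome 9, 7847468 to 7873205), was at 27.5, 34.2 and 37.9 RPKM in the knockout libraries, against 34.1, 31.5 and 34.5 RPKM in the wild-type libraries. Knockout libraries held both the lowest and the highest value (log2 fold change -0.02 ± 0.13 SE, interval -0.31 to 0.27, adjusted p = 0.954 in limma). In the authors' deposited table the adjusted p of Tnfaip3 is 0.217, of Traf1 0.254 and of Birc3 0.952, and 0 of the 10 genes are below 0.05 there.

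**Figure D3:**
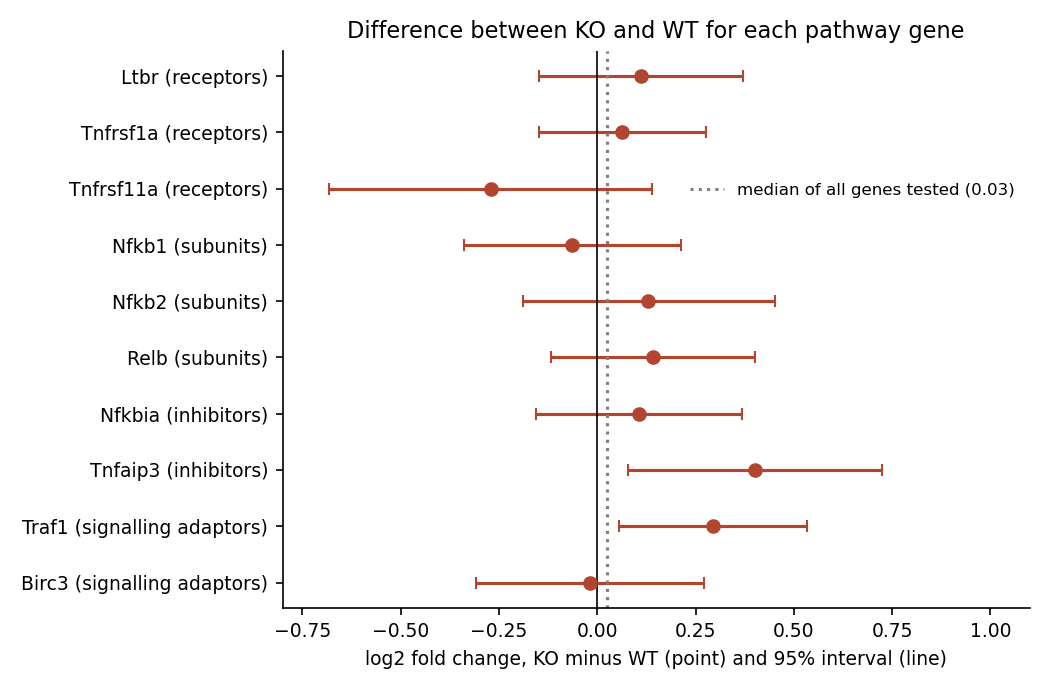
Log2 fold change (knockout minus wild type, points) with its 95% interval (lines) for the 10 genes grouped by role, with the median of all genes tested (0.026) as a dotted line. The intervals of Tnfaip3 and Traf1 lie above 0 before adjustment for the 11035 genes tested, and the other 8 cross it.

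Libraries of one group also differed from each other across these genes. KO 3 was the highest of the 6 libraries for 5 of the 10 genes (Ltbr, Nfkb2, Relb, Nfkbia and Tnfaip3), and WT 4 was the lowest for 4 (Ltbr, Relb, Nfkbia and Traf1) and the lowest of its group for 8. After centring each gene on its mean, the median over the 10 genes was 0.14 in KO 3 and -0.18 in WT 4 on the log2 scale, and between -0.005 and 0.021 in the other 4 libraries. For the other 5 genes the highest knockout library was KO 4 (Birc3, Nfkb1 and Tnfrsf11a) or KO 2 (Tnfrsf1a and Traf1), and WT 4 was not the lowest wild-type library for Tnfaip3 and Birc3. The median log2 fold change of the 10 was 0.04 without KO 3 and 0.04 without WT 4, but 0.17 without KO 4 and 0.14 without WT 1. It was 0.03 after removal of GC and length trends, 0.04 after quantile normalization and 0.19 with library quality weights. The medians over all genes tested in these settings were 0.045, 0.035 and 0.031. The residual SD of the 10 genes was 0.075 to 0.22 on the log2 scale, below the median of all tested genes (0.183) for 8 of them.

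**Figure D4:**
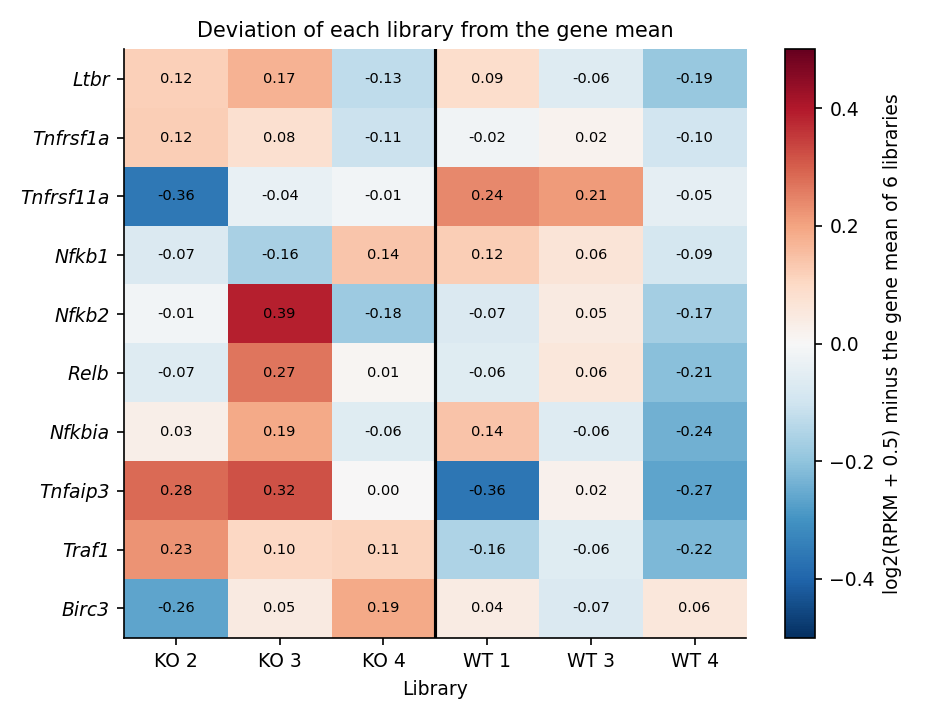
Deviation of each library from the gene's mean over 6 libraries, on the log2(RPKM + 0.5) scale, for the 10 genes (rows) in the knockout and wild-type libraries (columns). KO 3 is high for Nfkb2, Relb, Nfkbia and Tnfaip3, and WT 4 is below the mean for 9 genes.

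Nfkbia and Tnfaip3 are also known as early response genes, and the tissue was digested before sorting, so a list of other early response genes is given. Of 15 tested, 12 had a positive log2 fold change and none was called (4 at an unadjusted p under 0.05 in limma, and 0 called in voom), with a median of 0.17. Over all genes tested, 54.3% were positive and 15.7% at such a p. Their summed level was 6528.0 to 7671.0 RPKM in knockout and 6099.0 to 6766.0 RPKM in wild type. The part of digestion in the values of Tnfaip3, Nfkbia and Traf1 was not tested.

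The profile of Tnfaip3 over the 6 libraries, as the gene of smallest p, was most like those of Cndp2, Sardh, G6pdx, Tfe3 and Ap3m2. Likeness was the root mean square difference of centred log2(RPKM + 0.5) values, which was 0.034 for Cndp2, a dipeptidase gene, and 0.052 for Ap3m2, where the profile of Tnfaip3 itself has a root mean square of 0.253. Cndp2 was at 38.1, 38.0 and 31.8 RPKM across KO 2, KO 3 and KO 4, against 24.1, 30.2 and 26.4 RPKM across WT 1, WT 3 and WT 4. It shares with Tnfaip3 the low place of KO 4 among knockout and the high place of WT 3 among wild-type libraries, and none of these genes was called (adjusted p of 0.151 to 0.322 in limma).

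Ligands for the receptors were mostly near 0. Of 18 ligand genes listed beside the 10, 5 were high enough to test and none was called (none either at an unadjusted p under 0.05 in limma or called in voom, median log2 fold change -0.16). Ltb and Tnfsf12 stood well above the other listed ligands in level. Ltb, which encodes the membrane-bound chain of lymphotoxin, was at 43.0, 48.5 and 43.5 RPKM across KO 2, KO 3 and KO 4, against 43.0, 46.4 and 46.3 RPKM across WT 1, WT 3 and WT 4 (log2 fold change -0.01, interval -0.23 to 0.21, adjusted p = 0.974 in limma). The 9 leukocyte markers, which are Ptprc and genes of B and T cells, summed to 2.02 RPKM or less in these libraries. Which cells gave the Ltb reads was not tested. Tnfsf12, the gene of the cytokine TWEAK, was at 12.6, 13.5 and 13.6 RPKM in the knockout libraries, against 15.5, 11.1 and 10.7 RPKM in the wild-type libraries (adjusted p = 0.760 in limma). Both were named after their values were seen. The partner of Ltb, Lta, without which the heterotrimer that binds Ltbr cannot form, reached at most 0.053 RPKM in a library and was listed at 0 in KO 2, KO 3, WT 3 and WT 4. Tnf was at 0.012, 0.097 and 0.242 RPKM in the knockout libraries, against 0.252, 0.147 and 0.068 RPKM in the wild-type libraries. Tnfsf11, the gene of RANKL, was listed at 0 in all knockout libraries and in WT 3. Of the 3 tested ligands with the smallest p, Tnfsf9 was at 1.46 ± 0.346 RPKM in knockout and 2.22 ± 1.22 RPKM in wild type, Tnfsf10 at 2.37 ± 0.494 RPKM in knockout and 2.87 ± 0.211 RPKM in wild type, and Tnfsf13 at 0.922 ± 0.212 RPKM in knockout and 1.09 ± 0.225 RPKM in wild type (adjusted p = 0.521, 0.546 and 0.730 in limma).

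Of 24 further receptor genes of the family, 10 were tested, with a median log2 fold change of -0.07. An unadjusted p under 0.05 in limma was found for 3 of these further receptors, beside 15.7% of all genes tested. Called was 1 of them, beside 1.94% of all genes tested. That was Tnfrsf10b, which encodes the mouse death receptor for TRAIL and was higher in knockout. It was at 3.75, 4.78 and 3.29 RPKM across KO 2, KO 3 and KO 4, against 1.40, 1.01 and 1.03 RPKM across WT 1, WT 3 and WT 4, with all knockout libraries above all wild-type ones. The log2 fold change was 1.43 ± 0.20 SE (adjusted p = 0.00786 in limma). Its adjusted p was 0.0506 once KO 3 was left out and 0.0551 when low genes were kept, so both settings end the call, and it ranged from 0.00561 to 0.0551 over 14 alternatives without quality weights. Tnfrsf10b (chromosome 14, 69767472 to 69784411) lies on the same chromosome as Stab1, 38.6 Mb away. Tnfrsf23, a decoy receptor for TRAIL with close copies next to it, so that its level is uncertain, was at 3.31 ± 0.264 RPKM in knockout and 4.83 ± 0.397 RPKM in wild type (adjusted p = 0.183 in limma). Cd40 was at 5.81 ± 1.23 RPKM in knockout and 4.17 ± 0.461 RPKM in wild type (adjusted p = 0.302), and Tnfrsf1b, the second TNF receptor, at 8.19 ± 0.553 RPKM in knockout and 7.02 ± 1.26 RPKM in wild type (adjusted p = 0.530).

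Components between the receptors and NF-kappaB were tested next, and none was called in unweighted limma or voom on all 6 libraries. Library quality weights called 6 adaptors and ubiquitin ligases and 3 kinases and kinase regulators, along with 33.1% of all genes tested. Of 16 adaptors and ubiquitin ligases, 2 had an unadjusted p under 0.05, beside 15.7% of all genes tested. Their median log2 fold change was 0.11, beside 0.026 over all genes tested. Birc2, the paralogue of Birc3 that lies 10336 bases from it on chromosome 9, was at 20.2, 22.9 and 24.0 RPKM across KO 2, KO 3 and KO 4, against 30.8, 29.9 and 27.4 RPKM across WT 1, WT 3 and WT 4. All knockout libraries were below all wild-type ones (log2 fold change -0.39 ± 0.11 SE, adjusted p = 0.142 in limma), and with GC and length trends removed the log2 fold change of Birc2 was -0.21. Traf7 was at 108 ± 6.43 RPKM in knockout and 92.0 ± 5.96 RPKM in wild type, and Casp8, an initiator caspase, at 26.5 ± 1.19 RPKM in knockout and 30.7 ± 2.57 RPKM in wild type (adjusted p = 0.273 and 0.386 in limma).

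Of 8 tested kinases and kinase regulators, 1 had an unadjusted p under 0.05 and the median log2 fold change was -0.01. That was Chuk, a kinase needed for the processing of the Nfkb2 product, at 14.9, 12.1 and 19.6 RPKM in the knockout libraries, against 20.8, 21.6 and 24.6 RPKM in the wild-type libraries. The groups were narrowly apart, with KO 4 just under WT 1 (log2 fold change -0.53 ± 0.17 SE, adjusted p = 0.178 in limma). Chuk was called without KO 4 (log2 fold change -0.71, adjusted p = 0.0389 in limma), where all genes gave 418 calls, beside 214 with all 6 libraries. It was not called without KO 2 or without KO 3 (adjusted p = 0.452 and 0.572 in limma). Library quality weights called it (log2 fold change -0.69, adjusted p = 0.00248 in limma), along with 33.1% of all genes tested. With GC and length trends removed Chuk was at -0.28 on the log2 scale. Map3k14, the kinase that activates it, was at 7.66 ± 0.714 RPKM in knockout and 7.41 ± 1.72 RPKM in wild type (adjusted p = 0.882 in limma) and was named after its values were seen. Tab2 was at 2.32 ± 0.415 RPKM in knockout and 3.01 ± 0.405 RPKM in wild type, and Ikbkb, the canonical kinase, at 20.4 ± 0.745 RPKM in knockout and 17.9 ± 2.70 RPKM in wild type (adjusted p = 0.424 and 0.495 in limma).

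Of 14 other subunits and inhibitors tested, 2 had an unadjusted p under 0.05, beside 15.7% of all genes tested. The median log2 fold change of the 14 was -0.06. Tax1bp1, an adaptor through which the Tnfaip3 product acts, was at 42.4, 35.4 and 70.0 RPKM across KO 2, KO 3 and KO 4, against 81.4, 74.1 and 83.6 RPKM across WT 1, WT 3 and WT 4. KO 4 stood close to wild type and apart from the other knockout libraries (log2 fold change -0.75 ± 0.21 SE, adjusted p = 0.122 in limma). The gene was called without KO 4 (log2 fold change -1.03, adjusted p = 0.00851 in limma), but not without KO 2 or without KO 3 (adjusted p = 0.361 and 0.405). Library quality weights called it (log2 fold change -0.93, adjusted p = 0.00131 in limma), along with 33.1% of all genes tested. With GC and length trends removed it was at -0.41 on the log2 scale. Nfkbid and Nfkbiz, which encode nuclear proteins of the inhibitor family, were at 11.4 ± 1.97 and 21.1 ± 1.26 RPKM in knockout, against 8.51 ± 1.36 and 17.6 ± 4.55 RPKM in wild type (adjusted p = 0.301 and 0.433 in limma).

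Target genes completed the pathway. Of 19 tested canonical targets, 15 had a positive log2 fold change and none was called in limma or voom. An unadjusted p under 0.05 was found for 3 of the 19, and the median log2 fold change was 0.12. Over all genes tested, 54.3% were positive, 15.7% had such a p and the median was 0.026. Cx3cl1, a membrane-bound chemokine, was at 5.74 ± 1.14 RPKM in knockout and 8.20 ± 0.867 RPKM in wild type, Cxcl16, another chemokine, at 155 ± 4.38 RPKM in knockout and 131 ± 10.8 RPKM in wild type, and Ier3, an early response gene, at 212 ± 32.7 RPKM in knockout and 167 ± 25.5 RPKM in wild type (adjusted p = 0.221, 0.257 and 0.272 in limma). The annotated spans of Cxcl16 and Zmynd15 share 552 bases, and reads from there cannot be assigned to either gene. Of 5 tested targets that depend on lymphotoxin, 1 was called lower and none higher, beside 1.94% of all genes tested called in either direction. An unadjusted p under 0.05 in limma was found for 2 (Cxcl13 and Glycam1), beside 15.7% of all genes tested. The median log2 fold change of these targets was 0.18. Cxcl13, the follicular B-cell chemokine, fell. It was at 19.1, 14.2 and 14.6 RPKM across KO 2, KO 3 and KO 4, against 76.0, 67.6 and 43.7 RPKM across WT 1, WT 3 and WT 4 (log2 fold change -1.91 ± 0.20 SE, adjusted p = 0.00159 in limma). This fall was known when the list was made.

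Glycam1, an L-selectin ligand, was at 3.25, 11.4 and 4.74 RPKM across KO 2, KO 3 and KO 4, against 2.19, 0 and 0.035 RPKM across WT 1, WT 3 and WT 4. All knockout libraries were above all wild-type ones (log2 fold change 2.78 ± 0.62 SE, interval 1.39 to 4.18, adjusted p = 0.0596 in limma). Glycam1 was called without WT 1 (log2 fold change 3.57, adjusted p = 0.00503) and with library quality weights (3.07, adjusted p = 0.000966). Over 14 alternatives without quality weights its log2 fold change ran from 2.2 to 5.6, at adjusted p of 9.27e-05 to 0.232. In the authors' deposited table its adjusted p is 0.098. With WT 3 and WT 4 at or near 0, the size of this fold change depends on the pseudocount. Madcam1, an addressin of marginal sinus endothelium, was at 10.2 ± 4.42 RPKM in knockout and 7.37 ± 0.598 RPKM in wild type, and Ccl19, a chemokine of the T-cell zone, at 5.05 ± 1.58 RPKM in knockout and 4.58 ± 2.10 RPKM in wild type (adjusted p = 0.586 and 0.812 in limma). Ccl21a was listed at 0 in every library, which says only that no reads were assigned to it. Cxcl13 and Ccl19 are made mainly by reticular cells, and in these bulk libraries fewer such cells and less RNA per cell cannot be told apart. The 9 reticular and fibroblast markers summed to 82.7 to 118 RPKM in knockout, against 260.0, 76.2 and 99.2 RPKM across WT 1, WT 3 and WT 4, so that WT 1 stood apart, with none of 7 tested called in limma or voom (0 at an unadjusted p under 0.05). Megakaryocyte markers summed to 56.1 to 69.0 RPKM in knockout, against 119, 236 and 81.9 RPKM in the wild-type libraries. Of the 7 tested, 6 had a negative log2 fold change and 3 an unadjusted p under 0.05, beside 15.7% of all genes tested. Called was 1, beside 1.94% of all genes tested, namely Pf4 (log2 fold change -1.62, adjusted p = 0.016 in limma). Macrophage markers summed to 9.62 to 13.8 RPKM in knockout, against 22.4, 25.4 and 12.7 RPKM in the wild-type libraries, with none of 3 tested called in limma or voom (2 at an unadjusted p under 0.05). Erythroid markers summed to 12.7, 1.79 and 1.01 RPKM across KO 2, KO 3 and KO 4, against 42.7, 40.4 and 6.27 RPKM in the wild-type libraries. Their 1 tested gene was not called (it was at an unadjusted p under 0.05). Hba-a1 was listed at 0 throughout, which again says only that no reads were assigned to it. The part of reticular, megakaryocyte, macrophage and erythroid cells in the pathway values was not tested.

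**Figure D5:**
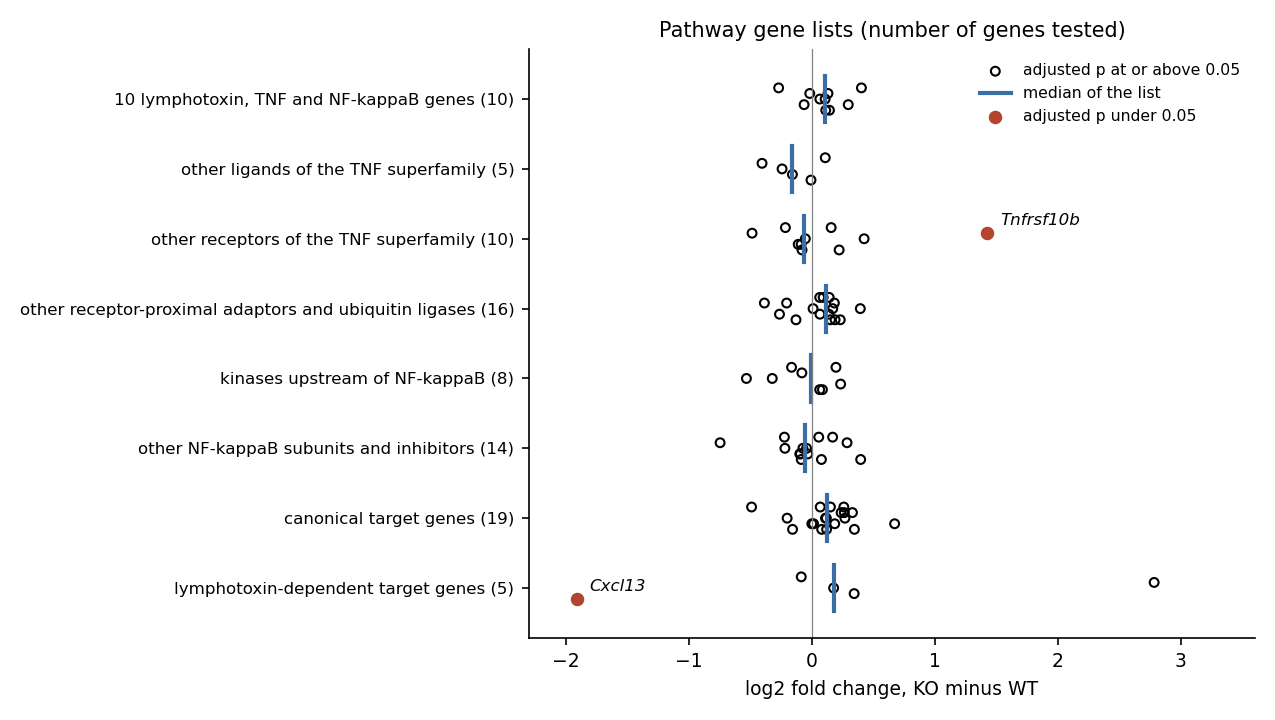
Log2 fold change (knockout minus wild type) of every tested gene in the 10-gene set and in 7 lists of the surrounding pathway, with list medians as blue lines and called genes filled red. Tnfrsf10b (1.43) and Cxcl13 (-1.91) are the 2 called genes, and the list medians lie between -0.16 and 0.18.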

How the data were processed

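RNA was amplified with a SMART-Seq kit and libraries made with Nextera XT, per the labels' protocols, a combination without strand information. Per the submitters' processing notes, tools included STAR (2.5.2b), edgeR, limma and Subread with genome build mm10, in no stated order. The authors deposited RPKM for 6 libraries, per the file headers. They also deposited a table of 13742 genes with group means and SDs, a signed fold score, log2 fold changes and p-values, per the file headers. Column numbers do not match the labels' replicate numbers, so columns were assigned to genotypes only, and 0 columns were left over.

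Genes reaching 1 RPKM in 3 or more libraries were kept. Genotype was the single term of a limma fit (version 3.58.1, R 4.3.3) to log2(RPKM + 0.5) (variance trend, Benjamini-Hochberg adjustment over 11035 genes, threshold 0.05). For all 17683 genes above 0, values were whole multiples of 1 read within a tolerance of 1e-05, which gave reads per library and a voom fit. A factor shared by all 6 numbers of a gene would make its reads too low. The chi-square of replicate pairs per degree of freedom was 31.3 to 104.8, more than counting alone gives. The fit was tested on simulated data. Alternatives were other pseudocounts, filters and scalings, voom, library quality weights, removal of GC and length trends (10041 genes, 10 of the 10 described) each library left out and, chosen after seeing the data, the column numbers as a replicate block.

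The genes, lists and tests were chosen with earlier results of these data known. Named genes are the 10, called genes of the lists, the 3 others of smallest p per list, and the 5 profiles most like that of the gene with the smallest p. Of the listed genes, Lta, Ltb, Tnf, Tnfsf11, Tnfsf12, Map3k14, Rela, Ccl21a, Ptprc and Hba-a1 were also named, outside this rule. Coordinates and promoters are RefSeq's for GRCm38.p6, the assembly behind mm10. Sequences were matched by symbol. Figures used Python 3.11.15 with matplotlib 3.10.9.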

Additional observations from a re-analysis of the deposited data

How the results depend on the processing

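None of the 10 genes was called in 15 of the 16 alternatives. Library quality weights called 4 of them, Ltbr, Nfkbia, Tnfaip3 and Traf1, with 26 calls in the pathway lists and 3653 over all genes, beside 2 and 214 in the unweighted fit, and the cause was not tested. With no filter on low values the pathway lists held 1 call and all genes together gave 77 calls, and at a filter of 5 RPKM the lists held 1, where Tnfrsf10b is not among the genes tested. With 1 library left out, all genes gave 56 to 418 calls (83 without KO 2, 56 without KO 3, 418 without KO 4, 93 without WT 4), the pathway lists 1 to 4 and the 10 genes 0. Across alternatives other than the weights, log2 fold changes ran from 0.28 to 0.52 for Tnfaip3 (adjusted p 0.112 to 0.662) and from 0.20 to 0.34 for Traf1 (0.158 to 0.625). Differences near 0 changed sign. After removal of GC and length trends Tnfrsf1a was at -0.005, Nfkb1 at 0.035, Nfkb2 at -0.013 and Birc3 at 0.029. Leaving out single libraries, Nfkb1 ran from -0.15 to 0.001, Nfkb2 from -0.031 to 0.25, Birc3 from -0.12 to 0.11 and Ccl19 from -0.17 to 0.47. Tnfsf13 was at 0.10 with quality weights. Voom gave 222 calls over all genes, and the call of Stab1 held throughout. The labels' replicate numbers could not be used as a block, since the columns carry other numbers. A replicate block on the column numbers, chosen after seeing the data, rests on the 2 numbers that both groups hold and leaves 1 residual degree of freedom. The deviations of KO 3 and WT 3 correlated at 0.19 over genes, those of KO 4 and WT 4 at 0.19, and those of other pairs across the groups at -0.16 to 0.09. With so few pairs this is a hint from the data and does not settle whether numbers mark a shared source. The block gave 355 calls over all genes, 4 in the pathway lists (Glycam1 among them, adjusted p = 9.27e-05 in limma) and 0 among the 10, with Nfkb1 at 0.0 and Birc3 at 0.125. Limits are the 3 libraries per group and, for genes near 1 RPKM, the pseudocount, which understates fold changes.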
